A study of Mus musculus with 20 samples.

Results

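The nuclear genes of respiratory complex I were described here across 20 RNA-seq libraries of mouse heart. Their members were the protein-coding rows of the table whose symbol began with Ndufa, Ndufab, Ndufb, Ndufc, Ndufs or Ndufv followed by a number, which gave 37 of 26440 genes. All 37 had a signal above 0 in every library and all 37 passed the filter on low values. Ndufb1, written among the subunits of the distal membrane arm, was not matched by this rule in the table and was not analysed here.

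The libraries came from C57BL/6N mice labelled MyHC-Creld1 KO, described by the submitters as a knockout specific to the myocardium, and from wild-type mice of the same litters. The sources used here do not spell out the driver of the deletion, and cells of the heart outside the myocardium are not its target. At mid-gestation, on embryonic day E13.5, the whole heart of 4 knockout and 4 wild-type embryos of 3 litters was used. The atria and the ventricles of 3 knockout and 3 wild-type pups of 3 litters gave 1 library each on postnatal day P3, so that there were 6 groups of stage, tissue and genotype. Each library was made from total RNA of 1 animal by the SMART-Seq2 protocol, and the values are the signals deposited by the authors, normalized on a linear scale. In such bulk tissue fewer cells of a type and less RNA per cell cannot be told apart.

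Complex I is the entry point of electrons from NADH into the mitochondrial respiratory chain, and it pumps protons across the inner membrane while passing the electrons to ubiquinone. Its L-shaped body has a peripheral arm in the matrix, with the flavin, the iron-sulfur clusters and the quinone site, and a membrane arm that holds the mitochondrially encoded proton-pumping subunits surrounded by nuclear-encoded accessory subunits. Heart muscle is rich in mitochondria, and the heart shifts from glycolysis towards oxidative metabolism around birth.

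Estimated total counts ran from 5138352 to 20669361 per library, and the lowest member of a library had from 143 to 1210.0 estimated counts. Creld1 was lower in knockout than wild-type libraries on average at every stage, by a log2 difference of -1.66 at E13.5, -0.89 in atria and -0.97 in ventricles, and limma called none of them (adjusted p = 1 each). In 2 of the 10 pairs of the same litter and number it was higher, and in another it was nearly equal: 70.9 in E13.5 knockout 1 against 66, 26.6 in atrial knockout 2 against 21.6, and 59.3 in ventricular knockout 2 against 59.7 in the libraries labelled knockout and wild-type. The atrial library of wild-type pup 2 held the ventricular light chain Myl2 at 9242, against 40.8 and 21.7 in the other wild-type atria. The atrial light chain Myl7 was at 19990 in this library, against 29117 and 20344 in those atria and 537 to 1256 in the ventricular libraries. In the same atrial library the X-inactivation transcript Xist was at 2876 and Y-linked Eif2s3y at 1.65, against 74.9 and 2427 in the ventricles labelled as the same pup, so the 2 libraries go against a shared animal. Its Creld1, at 21.6, lay below the 105 and 146 of the other wild-type atria and also below the 23.1, 26.6 and 82.4 of the knockout atria. Creld1 therefore does not bear out the wild-type label of this library. The third atrial pair, wild-type 3 and knockout 3, had 10.4% and 3.55% of its signal from mitochondrial genes, against 22.6 to 31.3% in the other atria. Its total signal was 5777194 and 6601097, against 9546486 to 11368518, and 22819 and 23457 genes were above 0, against 18357 to 21409. Its 8 macrophage markers summed to 1510 and 1407, against 405 to 588. Its 8 skeletal muscle markers summed to 2790 and 4823, against 927 to 1610. The part of these traits in the results was not tested. Several results that rest on these libraries are given without them as well, and others as the range over fits that each left out 1 library or pup.

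The 37 genes lie on 15 chromosomes, with Ndufa1 and Ndufb11 on X. Per kilobase of 1 representative transcript, the mean signal over the 20 libraries ran from 325 for Ndufv1, which binds NADH and the flavin (chr19:4007384-4012806, GRCm38), to 9948 for Ndufa1, 15016 for Ndufa4 (chr6:11900292-11907497) and 27847 for Ndufc1, whose transcript measures only 0.315 kb. The core genes Ndufs8 at 621 and the accessory gene Ndufs4 at 644 per kilobase were the next lowest above Ndufv1. Even Ndufv1 stood above 86.7% of the protein-coding genes of the table by mean signal per gene. Ndufa4 is counted by its symbol among the complex I genes, although its protein is now assigned to cytochrome c oxidase, the last complex of the chain. For 16 members an exon overlaps that of another gene, for 14 of them on the opposite strand, and 4 annotated pseudogenes carry an Nduf name. Whether the counting used strand is not given in the sources used here, so these values may include reads of the neighbours.

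Promoters are shown because 23 of the members rose together between E13.5 hearts and P3 ventricles. RefSeq promoter windows (GRCm38.p6, 250 bases before and 50 after the start) were matched for 33 of the 37 members. The site of NRF1, a factor known for driving nuclear genes of the respiratory chain, was searched on both strands as GCGCA, any base, GCGC. It occurred in 7 members (Ndufa5, Ndufa6, Ndufa8, Ndufa11, Ndufb4, Ndufs5 and Ndufs6), or 21.2% of the 33, and in 5.19% of all 27025 genes with a window. In Ndufa11, Ndufb4 and Ndufs5 a match lay upstream of every annotated exon, at chr17:56717686-56717751 on the plus strand, chr16:37654510-37654599 on the minus strand and chr4:123718235-123718324 on the minus strand. These 3 stretches read, 5′ to 3′ on the strand of the gene and with the match in capitals:
Ndufa11: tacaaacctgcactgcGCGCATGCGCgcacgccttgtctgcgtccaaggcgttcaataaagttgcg
Ndufb4: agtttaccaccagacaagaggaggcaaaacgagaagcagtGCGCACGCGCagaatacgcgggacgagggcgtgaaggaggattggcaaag
Ndufs5: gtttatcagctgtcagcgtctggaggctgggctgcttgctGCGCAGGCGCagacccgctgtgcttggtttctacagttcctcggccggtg
The first base of the match stood 60 bases before the start of Ndufa11, 191 before that of Ndufb4 and 98 before that of Ndufs5. Ndufb4 held 3 matches in its window. The YY1 letters AANATGGCG were found in 7 members, 21.2% against 2.76% of all genes, the ETS letters CCGGAAG in 4 members (12.1% against 9.93%) and the TATA letters TATAAA in 4 (12.1% against 15.7%). In Ndufa9, Ndufc1, Ndufs4, Ndufs6 and Ndufs7 the YY1 letters began 22 to 35 bases after the start, in transcribed sequence. In Ndufa7 and Ndufb11 they began before it. The estrogen-related receptor letters TCAAGGTCA were found in 0 members and 0.466% of all genes. All motifs were searched on both strands, none contains another, and a match is a string of letters and no measured binding. Of the 7 members with the NRF1 letters, 6 were called higher in ventricles than at E13.5, and of the 26 without them 15. For YY1 it was 4 of 7 with the letters and 17 of 26 without them. For ETS it was 2 of 4 and 19 of 29, and for TATA 1 of 4 and 20 of 29. The part of any motif in the rise was not tested.

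The first comparison asked how the subunit genes differed between wild-type P3 ventricles and wild-type E13.5 hearts, a contrast in which the stage and the part of the heart dissected cannot be told apart. All 37 members had a higher mean in ventricles, with a median log2 difference of 1.04 on the log2(signal + 1) scale against 0.00 over all 18125 genes tested, and limma, a linear model fitted over all genes, called 23 of them higher and 0 lower at an adjusted p under 0.05. Over all genes 3.35% were called higher and 1.74% lower. In 33 members the 3 ventricular values all lay above the 4 embryonic ones, against 10.3% of all genes, and only Ndufa7, Ndufa12, Ndufb7 and Ndufs8 overlapped. The wild-type ventricular libraries had a mean log2 level over the members of 11.7 to 11.8, the knockout ventricles 11.3 to 11.7, the 6 atrial libraries 10.6 to 11.1 and the 8 embryonic ones 10.5 to 10.8. Preparation year moved with stage, since all P3 libraries but only E13.5 replicate 4 were prepared in 2018. Against that 1 wild-type E13.5 library alone the median was 1.04, with all 37 members positive.

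**Figure D1:**
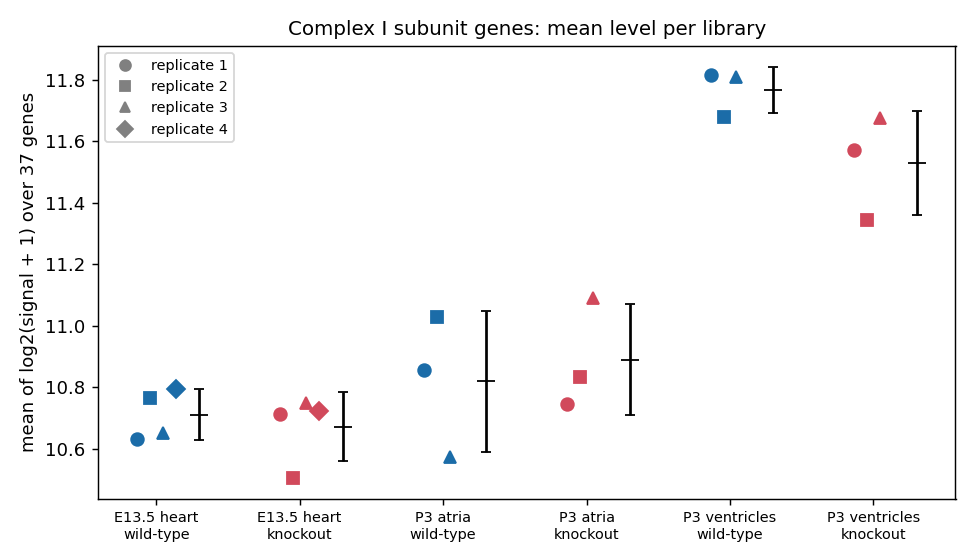
Mean of log2(signal + 1) over the 37 complex I subunit genes, 1 point per library, by group (blue wild-type, red knockout, symbols for replicate numbers, black mark and bar for mean and SD over libraries). The 6 ventricular libraries lie at 11.3 or above, and all atrial and E13.5 libraries at 11.1 or below.

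Among the 7 core subunits of the peripheral arm, which carry the electron path, 4 were called higher and the median difference was 1.19. Ndufv1, the NADH-binding subunit, had signals of 976, 763 and 775 in the ventricles and 388, 248, 254 and 352 in the E13.5 hearts. The groups did not overlap, and the log2 difference was 1.45 ± 0.39 (SE) with a limma adjusted p of 0.0333. Without any 1 ventricular library or E13.5 library 2, 3 or 4, this call was lost. Ndufv2 and Ndufs3, an iron-sulfur subunit and a scaffold subunit of the quinone module, were called higher with log2 differences of 1.23 and 0.83. Ndufs1 and Ndufs8 were among those not called, with log2 differences of 1.19 and 0.72 and limma adjusted p of 0.058 and 0.51.

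Of the 9 accessory subunits of the peripheral arm 6 were called higher, with a median difference of 0.92. Ndufa5, of the quinone module, was at 6967, 6168 and 7502 in ventricles and 3013, 2700.0, 2553 and 2875 in embryonic hearts, a log2 difference of 1.30 ± 0.26 (SE) (limma adjusted p = 0.00383). Every ventricular value of Ndufa5 was above every embryonic one. Ndufs6, a zinc-binding subunit of the NADH module, was at 3875, 3813 and 4218 and 1852, 1713, 1446 and 1865, a log2 difference of 1.21 ± 0.24 (SE) (limma adjusted p = 0.00332). Ndufa12 had the smallest difference of all members, 0.58 ± 0.27 (SE) with a 95% interval of 0.02 to 1.13, and its groups overlapped. Ndufs4, which sits on the NADH module and is mutated in inherited complex I deficiency, was called at 0.87 ± 0.25 (SE) (limma adjusted p = 0.045), and Ndufa2 and Ndufa7 were not called.

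Of the 9 accessory subunits around the proximal membrane arm 6 were called higher, and in all 9 the groups did not overlap. X-linked Ndufa1, a small single-pass membrane subunit, was at 6669, 7817 and 6706 in ventricles and 3096, 2718, 2725 and 2561 at E13.5, a log2 difference of 1.35 ± 0.26 (SE) (limma adjusted p = 0.00267). Ndufa8, a subunit with twin cysteine motifs that faces the intermembrane space, was at 5630.3, 3826 and 4001 and 1664, 2040.0, 1564 and 2078, a difference of 1.28 ± 0.24 (SE) (limma adjusted p = 0.00286). The other called genes of this arm were Ndufa3, Ndufa11, Ndufa13 and Ndufs5, at 0.83 to 1.28. Ndufc1, Ndufc2 and Ndufa10 were not called, with differences of 0.64 ± 0.46 (SE), 0.87 ± 0.29 (SE) and 1.06 ± 0.38 (SE).

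The distal membrane arm held the member with the largest difference. Ndufb10, another intermembrane-space-facing subunit with twin cysteine motifs (chr17:24722060-24724478), was at 7287, 5411 and 7982 in ventricles and 2012, 2279, 1662 and 1663 in E13.5 hearts. Means were 6894 ± 1330.0 (SD, n = 3) and 1904 ± 299.5 (SD, n = 4), and the log2 difference was 1.85 ± 0.22 (SE), or 3.6-fold (limma adjusted p = 2.2e-05). Its lowest ventricular value was above its highest value in any of the 14 other libraries of both genotypes outside the ventricles. X-linked Ndufb11 was at 2353, 1935 and 1815 and 781, 761, 576 and 986, a log2 difference of 1.41 ± 0.26 (SE) (limma adjusted p = 0.00245). Ndufb9, of the family of small proteins with a leucine-tyrosine-arginine motif, was at 5363, 4985 and 4881 and 1967, 2161, 1807 and 2185, a difference of 1.32 ± 0.22 (SE) (limma adjusted p = 0.000648). For both genes the ventricular and embryonic values did not overlap. Ndufb5, Ndufb6 and Ndufb8 were also called higher, so that 6 of the 10 genes of this arm passed, and Ndufb2, Ndufb3, Ndufb4 and Ndufb7 did not.

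The acyl carrier protein Ndufab1, a subunit listed here on its own, was not called (0.91 ± 0.28 (SE), limma adjusted p = 0.0625). Its ventricular values of 4326, 5885 and 8092 did not overlap with 2955, 3931, 3192 and 2606 at E13.5. Ndufa4 was at 13911, 14705 and 18198 in ventricles and 6746, 6721, 7884 and 6769 at E13.5, a log2 difference of 1.14 ± 0.32 (SE) (limma adjusted p = 0.0373). Its difference lay near the members' median. Over the 7 fits that each left out 1 library the number of members called was 12 to 18, and 10 members were called in all of them, among them Ndufa1, Ndufa5, Ndufa8, Ndufb9, Ndufb10, Ndufb11 and Ndufs6. Without both libraries of wild-type pup 2, 14 were called and all 37 kept a positive difference. The number of calls was 12, 14 and 13 without ventricular library 1, 2 and 3, and 14 without E13.5 library 3. The share of all genes called in these fits is not given here.

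**Figure D2:**
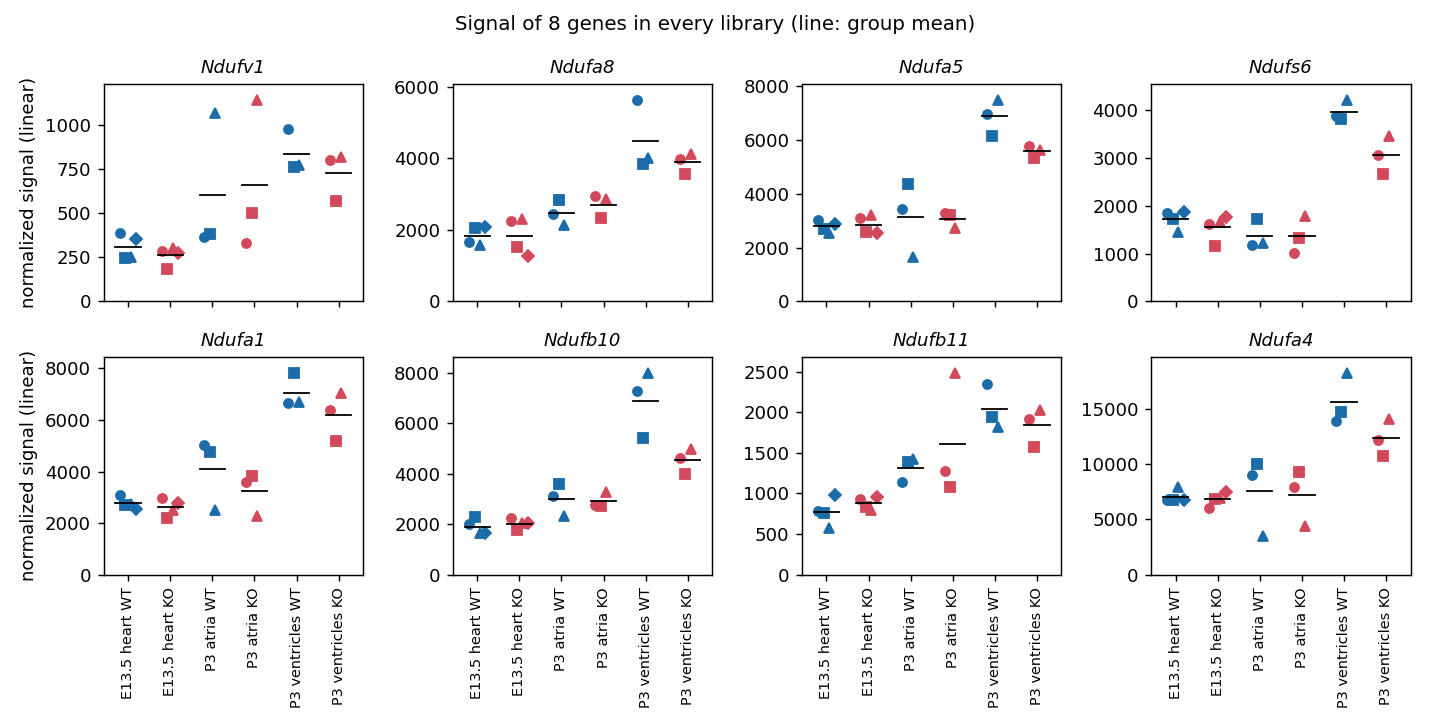
Normalized signal of 8 members in all 20 libraries (vertical axes linear from 0, blue wild-type, red knockout, symbols for replicate numbers 1 circle, 2 square, 3 triangle, 4 diamond, line for the group mean). Ventricular values are the highest groups of Ndufa8, Ndufa5, Ndufs6, Ndufa1, Ndufb10 and Ndufa4, while for Ndufv1 the atrial libraries of replicate 3 (triangles) in both genotypes, and for Ndufb11 that of the knockout, lie above every ventricular value.

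The partner genes were read in the same comparison. Of the 7 mitochondrially encoded complex I subunits 0 were called and 7 of 7 were higher, with a median difference of 1.50. Of 41 measured nuclear subunits of complexes II to V, 19 were called higher and 0 lower, with a median of 1.06. The muscle cytochrome oxidase gene Cox8b had means of 3175 ± 692 (SD, n = 3) in ventricles and 245 ± 107 (SD, n = 4) at E13.5, and the muscle isoform Cox6a2 8042 ± 1571 and 2163 ± 270.1 (limma adjusted p = 4.03e-07 and 0.000219). Of 18 complex I assembly factors, proteins that build the complex and leave it, only Ndufaf1 was called higher (669.6 against 269, limma adjusted p = 0.0298), and the median was 0.58. Of 12 regulators of mitochondrial biogenesis only the coactivator Ppargc1b was called higher (257 against 80.7, limma adjusted p = 0.0121). These lists were chosen with earlier results of the data known.

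Markers of cell types moved with this comparison. The summed signal of 12 cardiomyocyte markers was 309885 to 356869.9 in wild-type ventricles and 128833 to 156669 at E13.5, and 7 of the 12 were called higher with a median difference of 1.09. The 9 erythroid markers summed to 10362 to 25487 and 60746 to 234059, and the 10 fibroblast markers to 51704 to 56132 and 22399 to 27615. The 5 brown adipose markers in the table, among them Fabp4, which capillary endothelium also expresses, summed to 8174 to 11994 against 157 to 615, while the defining brown adipose gene Ucp1 was at 0 in 2 of the 3 wild-type ventricular libraries and at 157 in the other. The part of these differences in the complex I result was not tested.

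Wild-type P3 atria were then set against the same wild-type E13.5 hearts, so both stage comparisons share the embryonic libraries. Limma called 0 of the 37 members, against 3.11% of all genes called higher and 2.39% lower, and 4 members had an unadjusted p under 0.05, against 19.1% of all genes. The median difference was 0.048, with 20 members positive, and over all genes it was 0.092. In 6 members (Ndufa8, Ndufa11, Ndufb9, Ndufb10, Ndufb11 and Ndufv2) the atrial values all lay above the embryonic ones, against 8.07% of all genes. Ndufb11 was at 1142, 1387 and 1421 in atria, a log2 difference of 0.78 ± 0.26 (SE) (limma adjusted p = 0.0917). Ndufb10 was at 3095, 3583 and 2332, a difference of 0.65 ± 0.22 (SE) (limma adjusted p = 0.096). Both were between the embryonic and the ventricular means. Ndufa11 and Ndufv2, at 1794, 1529 and 2923 and 1468, 1704 and 2487, were highest in atrial library 3 and had differences of 0.72 ± 0.29 (SE) and 0.64 ± 0.29 (SE) (limma adjusted p = 0.173 and 0.222).

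The atrial result turned on single libraries. Without the third atrial pair the median was 0.26, 29 members were positive, and limma called Ndufa1 and Ndufb10 higher, and the same 2 were called without wild-type atrial library 3 alone. Without wild-type pup 2 the median was -0.092 with 17 positive and 0 called. Without wild-type atrial library 1 it was -0.046. The count of members that did not overlap moved as well: without wild-type atrial library 3 it was 15 higher and 0 lower, and without library 2 it was 8 higher and 3 lower. Smaller groups separate more easily. The shares of all genes that did not overlap or were called are not given here for these sets. These counts therefore cannot be set against those of the full groups. The fibroblast markers summed to 83123 to 89489 in wild-type atria, above every E13.5 and ventricular wild-type library, and 8 of the 10 were called higher than at E13.5. Their part in the atrial result was not tested.

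Within each wild-type pup, as labelled, the ventricles were set against the atria, the same P3 libraries as in both stage comparisons. The 2 libraries labelled pup 2 go against a shared animal by Xist and Eif2s3y, as given above. Their difference entered the tests and counts below as that of 1 pup. All 37 members had a higher mean in ventricles, with a median difference of 0.97 against -0.04 over all genes, and limma called 0 of them, against 0% of all genes called higher and 0.0883% lower. At an unadjusted p under 0.05, 23 members passed, against 9.87% of all genes. In 32 of the 37 every pup was higher, against 13.7% of all genes, and in 29 the 2 tissues did not overlap, against 7.80%. Ndufs6 had the smallest p, with ventricular values of 3875, 3813 and 4218 and atrial values of 1179, 1720.2 and 1215 in pups 1, 2 and 3, a log2 difference of 1.55 ± 0.31 (SE) (limma adjusted p = 0.137). Every ventricular value was above every atrial one. Ndufs3 was at 2934, 2975 and 3089 and 1363, 1792 and 1118, Ndufa9, at the root of the peripheral arm, at 3119.9, 2718 and 2591 and 1419, 1214 and 1144, with differences of 1.10 ± 0.29 (SE) and 1.16 ± 0.31 (SE) (limma adjusted p = 0.248 and 0.265). Ndufb10 differed by 1.20 ± 0.34 (SE) (limma adjusted p = 0.286). In a fit of the 6 group means over all 20 libraries, without the pup, limma called 10 members higher, among them Ndufa9, Ndufb10, Ndufs3 and Ndufs6. That fit had 14 residual degrees of freedom against 4 within pups, and it drew its spread from E13.5 libraries too. The change in calls therefore cannot be put down to the pairing alone. The share of all genes called in that fit is not given here.

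The median in pups 1, 2 and 3 was 0.97, 0.65 and 1.40. Pup 2, whose atria held Myl2, had the smallest of the 3. Without that pup the median was 1.14 and without pup 3 it was 0.76, with all 37 positive each time. Core subunits had a median of 0.70 and the accessory subunits of the peripheral, proximal and distal arms 0.97, 0.85 and 0.97. The 12 cardiomyocyte markers summed to 125996 to 210649 in wild-type atria and 309885 to 356869.9 in ventricles and the 10 fibroblast markers to 83123 to 89489 and 51704 to 56132, and their part in the result was not tested. The 7 mitochondrially encoded subunits were all higher in ventricles with a median of 1.49 (0 called), and the 41 subunits of complexes II to V were all higher with a median of 1.12 (0 called).

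In knockout pups the same comparison gave a median of 0.65, all 37 positive, and 0 called, against 0.0772% of all genes called higher and 0.121% lower. Every pup was higher for 28 members, against 14.7% of all genes, the tissues did not overlap in 26, against 8.08%, and 9 members had an unadjusted p under 0.05, against 9.28% of all genes. Ndufs6 again had the smallest p, at 3072, 2667 and 3458 in ventricles and 1015, 1319.5 and 1795 in atria, a log2 difference of 1.19 ± 0.31 (SE) (limma adjusted p = 0.255). Ndufv3, an accessory subunit beside Ndufv1, was at 3788, 4069.8 and 4476 and 2354, 2416 and 2301, with no overlap and a difference of 0.80 ± 0.30 (SE) (limma adjusted p = 0.472). Ndufs3 differed by 0.78 ± 0.29 (SE) and Ndufa1 by 0.96 ± 0.37 (SE). The pups' medians were 0.78, 0.49 and 0.66. In pups 1 and 2 all 37 members were higher in ventricles, and in pup 3 28 were. Without pup 3 the median was 0.66. Cardiomyocyte markers summed to 287131 to 363123 in knockout ventricles and 214912 to 218658 in knockout atria, without overlap, and 2 of the 12 were called higher. Erythroid markers summed to 17653 to 30961 and 31083 to 133133, again without overlap, with 8 of the 9 lower in ventricles and 0 called. Fibroblast markers lay at 53507 to 68381 and 62053 to 64755, with overlap. The part of these markers in the result was not tested.

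**Figure D3:**
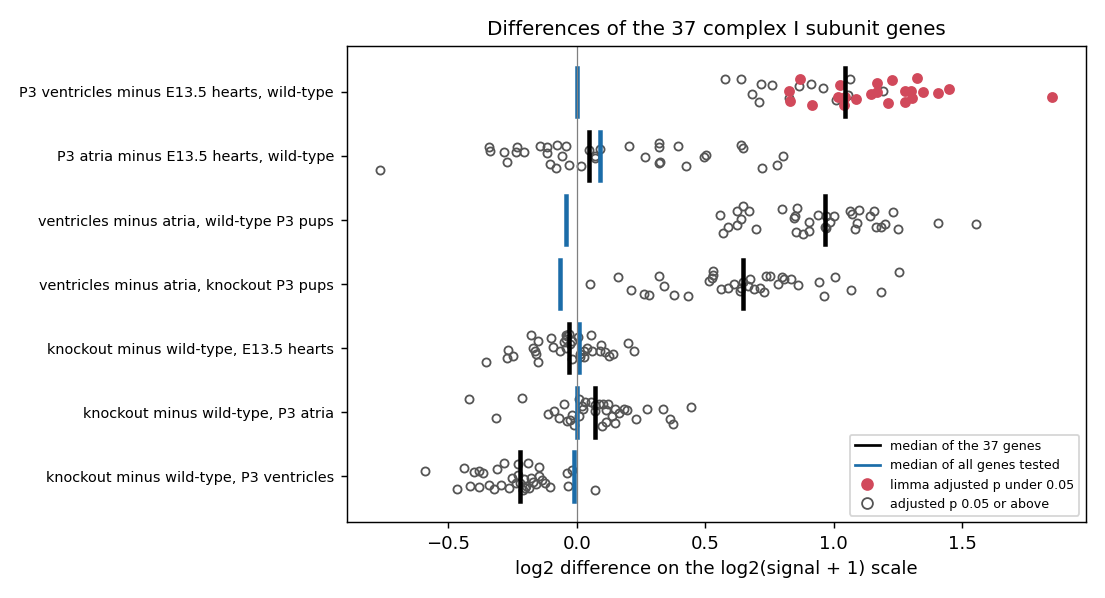
Log2 difference of each of the 37 members in 7 comparisons (horizontal axis log2(signal + 1) scale, 1 point per gene, red for a limma adjusted p under 0.05, black line for the members' median, blue line for the median of all genes tested). The median of the members is 1.04 for ventricles against E13.5 hearts and 0.97 and 0.65 for ventricles against atria, and red points occur in the first row only.

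The members did not vary evenly across atria. Over the members, the median SD of log2 values within a group was 0.46 in wild-type atria and 0.35 in knockout atria, and 0.19 to 0.22 in the other 4 groups. In 11 members both libraries of the third pair lay above the 4 other atrial libraries, and in 11 both lay below. Ndufs8, an iron-sulfur subunit, was at 1216 and 1647 in the third pair and 249 to 475 in the others. Ndufv1 was at 1066 and 1143 against 333 to 501. Conversely Ndufc1, a small membrane subunit, was at 1454 and 3068 against 6815 to 10377, and Ndufa4 at 3508 and 4390.4 against 7891 to 10009. The 11 members above had a median GC content of 55.3% and the 11 below one of 50.3%. Across the 37 genes, which share 1 library and are not replicates, the deviation of wild-type library 3 from the other 2 wild-type atria correlated with GC content at Pearson r = 0.49 and that of knockout library 3 at r = 0.53. Over all 18097 genes with a transcript the same r was 0.45 and 0.48, and in the 14 libraries of ventricles and E13.5 hearts it was -0.078 to 0.067. Among the members alone, ventricular and embryonic libraries ranged from -0.52 to 0.71, so that an r of this size over 37 genes is not particular to the third pair. The size of the deviations was. Their SD over the members was 1.02 in wild-type and 0.82 in knockout library 3. It was 0.38 to 0.59 in the other atria and 0.17 to 0.31 in ventricular and embryonic libraries.

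**Figure D4:**
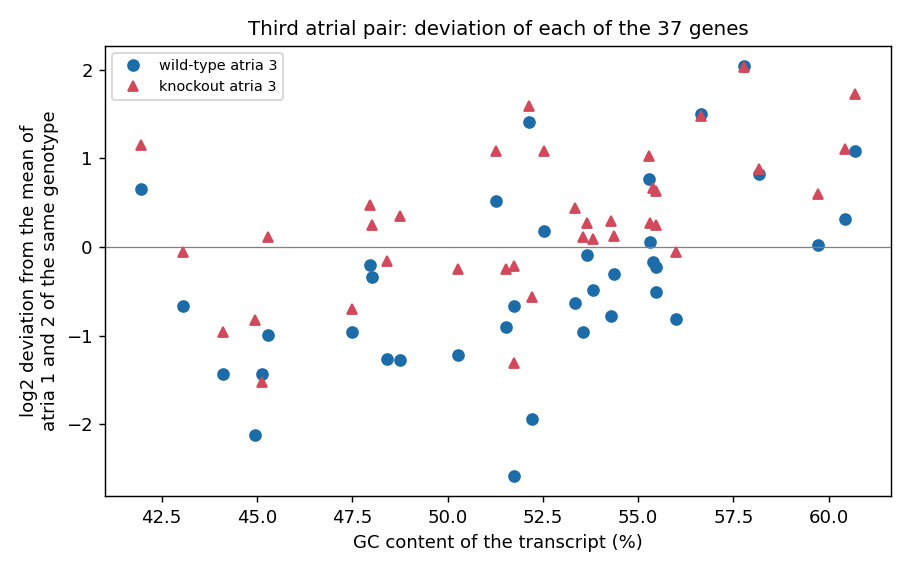
Deviation of the third wild-type (blue circles) and the third knockout (red triangles) atrial library from the mean of atria 1 and 2 of the same genotype, in log2 units, against the GC content of each member's transcript in percent. Points rise from left to right in both libraries, with Pearson r of 0.49 and 0.53 over 37 genes, and Ndufs8 is the highest point at 2.04 and 2.03.

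Knockout and wild-type libraries were then compared, and these contrasts share the libraries of the comparisons above. At E13.5 limma called 0 members at an adjusted p under 0.05, against 0% of all genes, and 0 at an unadjusted p under 0.05, against 4.12% of all genes. The median difference was -0.031, from -0.35 to 0.22, with 15 positive. Ndufs3 had the smallest p. It was at 1408, 976, 1506 and 1474 in knockout and 2157, 1487, 1559 and 1619.9 in wild-type hearts, lower in 4 of 4 pairs, as were 2 members in all (Ndufs3 and Ndufv3) against 5.50% of all genes, with overlapping groups, and its log2 difference was -0.35 ± 0.21 (SE) (95% interval -0.79 to 0.084, limma adjusted p = 1). Ndufa12, Ndufb11 and Ndufa10 followed by p, at 0.22 ± 0.25 (SE), 0.20 ± 0.24 (SE) and -0.27 ± 0.35 (SE), each with overlapping groups. The median of the members in the 4 pairs was 0.07, -0.30, 0.11 and -0.072, so the pairs differed in sign. Without knockout library 1, in which Creld1 was not lower, the median was -0.057.

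In P3 atria 26 members were higher in knockout libraries with a median of 0.072, and limma called 0 of them, against 0.0276% of all genes, and 0 had an unadjusted p under 0.05, against 5.32% of all genes. Ndufb7, which faces the intermembrane space, was at 1686, 1626 and 2506 in knockout and 1443, 1558 and 1519.7 in wild-type atria, the only member whose groups did not overlap, against 3.92% of all genes. Its difference was 0.34 ± 0.27 (SE) (95% interval -0.22 to 0.89, limma adjusted p = 1). Ndufc2, Ndufa11 and X-linked Ndufa1 followed by p, at 0.37 ± 0.31 (SE), 0.36 ± 0.31 (SE) and -0.31 ± 0.27 (SE). The pairs differed in sign: the median was -0.14 and -0.25 in pairs 1 and 2 and 0.48 in the third pair. Without the third pair the median was -0.18 and 4 of the 37 were positive, and limma called 0. Ndufc2 itself reversed to -0.17. Without knockout library 2, in which Creld1 was not lower than in its pair, the median was 0.039, and with library weights it was -0.12. In that pair it was wild-type library 2 whose Creld1 stood apart from its group, at 21.6 against 105 and 146. Over the fits that each left out 1 library the median was -0.093 to 0.18. The partner genes did not all lie on the side of the members. The mitochondrially encoded subunits summed to 62996 to 506533 in knockout and 130647 to 685792 in wild-type atria, with 0 of 7 positive, a median difference of -0.78 and 0 called. The lowest sum of each genotype was that of library 3. Of the subunits of complexes II to V 29 of 41 were positive (median 0.11, 0 called), and of the assembly factors 10 of 18 (median 0.041, 0 called). Wild-type library 3 had the lowest cardiomyocyte marker sum, 125996, of the 6 atrial libraries, and the other 5 lay between 198385 and 218658. Erythroid markers summed to 31083 to 133133 in knockout and 15591 to 18828 in wild-type atria, and fibroblast markers to 62053 to 64755 and 83123 to 89489. The part of these markers in the result was not tested.

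In P3 ventricles 36 of the 37 members were lower in knockout libraries, with a median log2 difference of -0.22 against -0.012 over all genes. Limma called 0 of them at an adjusted p under 0.05 (0% of all genes), and 1 member, Ndufb10, had an unadjusted p under 0.05, against 3.90% of all genes. In 7 members, among them Ndufa5, Ndufb10, Ndufs3 and Ndufs6, all 3 knockout values lay below all 3 wild-type ones, against 5.56% of all genes, and 34, 36 and 23 of the 37 were lower in litter pairs 1, 2 and 3. Ndufb10 was at 4631, 3994 and 4993 in knockout and 7287, 5411 and 7982 in wild-type ventricles, a log2 difference of -0.59 ± 0.24 (SE) (95% interval -1.08 to -0.095, unadjusted p = 0.0217, limma adjusted p = 1). Ndufs4 was at 1220.5, 1135 and 1433 and 1423, 1772 and 2075, lower in 3 of 3 pairs with overlapping groups. Its difference was -0.47 ± 0.27 (SE) (limma adjusted p = 1). Ndufs3 differed by -0.36 ± 0.24 (SE). Ndufb3, at 0.07 ± 0.41 (SE), was the only positive member.

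By role the ventricular median was -0.31 for the 7 core subunits, -0.25 for the peripheral, -0.19 for the proximal and -0.17 for the distal accessory subunits. The mitochondrially encoded subunits (0 of 7 called, median -0.29) and the subunits of complexes II to V (0 of 41 called, median -0.24, 39 lower) lay at like values, and the assembly factors at -0.15 (0 of 18 called). The 12 cardiomyocyte markers summed to 287131 to 363123 in knockout and 309885 to 356869.9 in wild-type ventricles, with a median difference of -0.11. Knockout library 2 was lowest for the members, and its Creld1 was at 59.3 against 59.7 in its pair. The medians of the 3 pairs were -0.23, -0.36 and -0.069. Without knockout library 2 the median was -0.11 with 6 members positive, and without any other single library it lay between -0.30 and -0.21. All 9 erythroid markers had a positive difference, with sums of 17653 to 30961 in knockout and 10362 to 25487 in wild-type ventricles, and 0 were called. The 8 endothelial markers summed to 2942 to 3595 in knockout and 3836 to 4224 in wild-type ventricles, without overlap, with 7 of the 8 lower, a median difference of -0.26 and 0 called. The brown adipose markers summed to 5491 to 7533 and 8174 to 11994, also without overlap, with 3 of the 4 tested lower, a median of -0.60 and 0 called. The atrial markers summed to 6872 to 35047 and 3514 to 9429, with overlap. The part of these markers in the result was not tested.

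**Figure D5:**
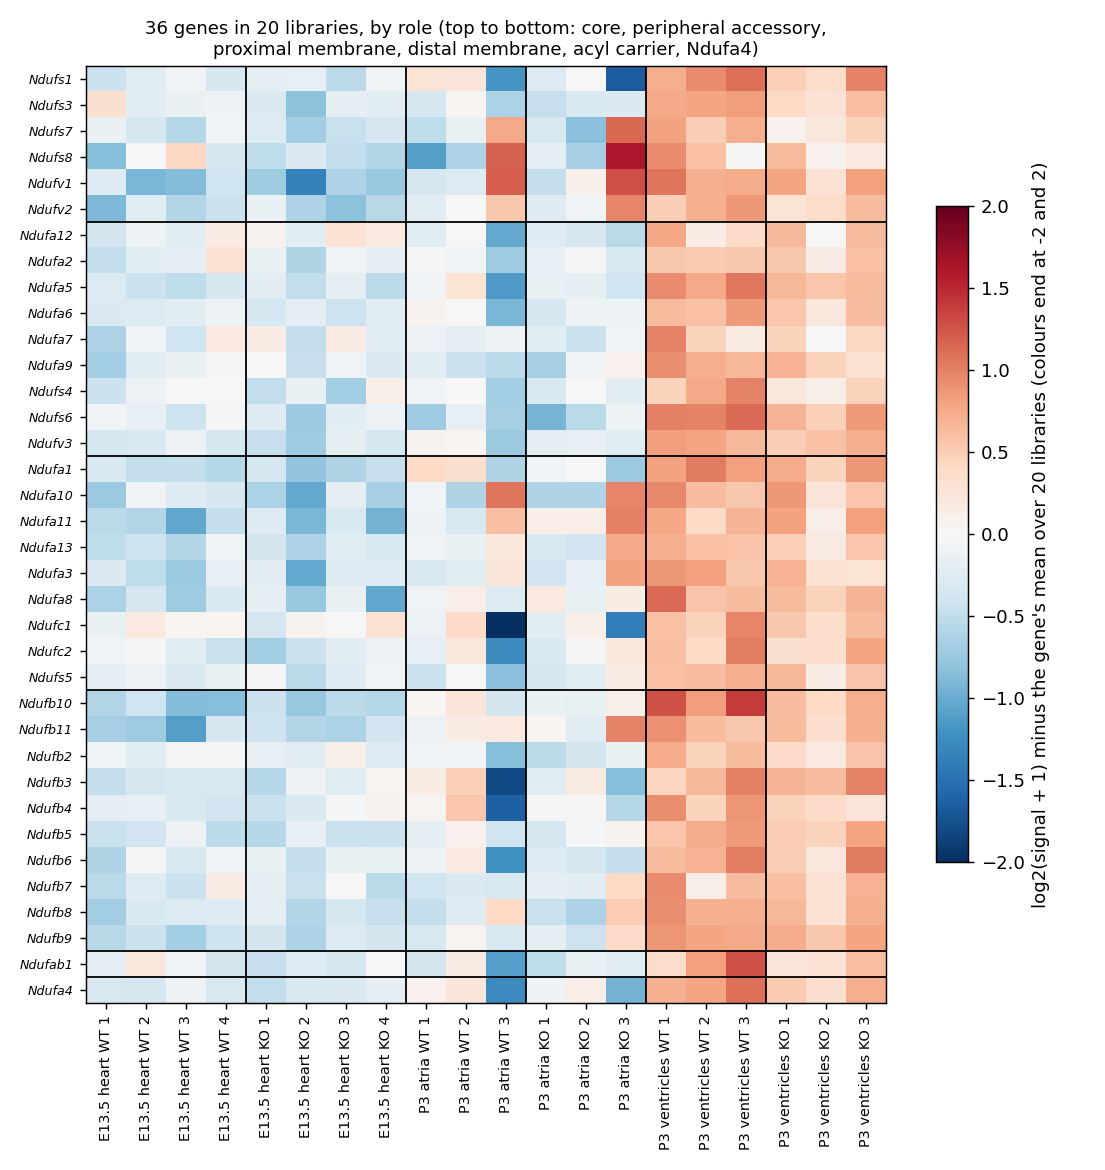
Log2(signal + 1) of 36 members (rows, grouped by role) in the 20 libraries (columns, grouped by stage, tissue and genotype) minus the mean of each gene over the libraries, in colours that end at -2 and 2. The ventricular columns are mostly red, the E13.5 columns mostly blue, and the largest single departures lie in the third atrial columns, Ndufs8 upward in knockout 3 and Ndufc1 downward in wild-type 3.

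The knockout effect in ventricles minus that in atria was taken within pups as labelled, and wild-type pup 2, whose libraries go against a shared animal, was included. It had a median of -0.33 with 3 of the 37 positive. Limma called 0 members (0% of all genes) and 0 at an unadjusted p under 0.05, against 2.59% of all genes. Ndufb10, Ndufs4, Ndufab1 and Ndufs5 had the smallest p, with differences of -0.56 ± 0.48 (SE), -0.54 ± 0.46 (SE), -0.58 ± 0.56 (SE) and -0.45 ± 0.44 (SE). The 95% interval of Ndufb10 was -1.65 to 0.52. Over the fits that each left out 1 pup the median was -0.41 to -0.20. Without the third pups of both genotypes the median was -0.13 with 11 positive.

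Across all 6 groups Ndufa4 had means of 7029.9 and 6805 in wild-type and knockout E13.5 hearts, 7513 and 7193 in atria and 15604 and 12309.6 in ventricles. The 2 ventricular means were the highest, and the embryonic and atrial means lay close together beside an SD of 3503 in wild-type atria (n = 3). The X-linked members did not pass the genotype test in atria, with differences of -0.31 ± 0.27 (SE) for Ndufa1 and 0.20 ± 0.28 (SE) for Ndufb11. Sex was not balanced there. Xist was at 20.4 in knockout atrial library 1 and at 1591 to 6119 in every other atrial library. Y-linked Eif2s3y was at 1682 in that library and at 1.65 to 5.2 in the others. The part of sex in these differences was not tested. Of all 37 members, 35 had their highest group mean in wild-type ventricles, with Ndufb3 highest in knockout ventricles and Ndufs8 in knockout atria. The lowest group mean was at E13.5 for 26 members and in P3 atria for 11.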

How the data were processed

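Libraries were made by SMART-Seq2 from RNA extracted with an RNeasy Micro kit, per the labels. The authors deposited 1 table of normalized signal per gene on a linear scale. Tools listed, without roles, in the submitters' processing notes are STAR 2.5.1, bcl2fastq 2.2 and DESeq2, with mm10 as the build. How reads were counted, with or without strand, and how libraries were scaled is not given in the sources used here. Whole reads could not be recovered from the signal, so no count test was run, and read totals are estimates. Values were tested as log2(signal + 1) with limma 3.58.1 in R 4.3.3, over 18125 genes with a signal of at least 10 in at least 3 libraries, and fold changes of low genes are understated on this scale. Stage and genotype contrasts came from 1 fit of 6 group means, and chamber contrasts from the ventricle minus atrium difference of each pup as labelled. P-values were adjusted by Benjamini-Hochberg over all genes, called at 0.05, and are two-sided. Python 3.11.15 made the summaries, and the fits were tested on simulated data. Members and gene lists were chosen with earlier results of these data known. Named in each comparison were at most the 8 called members with the largest change, or, with fewer than 3 called, the 4 with the smallest p; Ndufa4, Ndufa1, Ndufb11, the highest and lowest members and Creld1 were always named, as were up to 2 called genes of each partner list, other members were named after their values were seen, and 1 member that enters the counts is not reported here by name. Knockout and wild-type libraries of the same number share a litter and preparation date, per the labels. Over all genes, how they deviated from their group's mean correlated at 0.21 to 0.64 in atria, 0.02 to 0.066 in ventricles and -0.016 to 0.016 at E13.5. The alternatives were other pseudocounts (10 and 0.1), no filter, quantile and upper-quartile scaling, library weights, a replicate block, only the groups compared and leaving out each library.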

Additional observations from a re-analysis of the deposited data

Results flagged for a closer look

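In 46 groups of 4 E13.5 values (22 named members and the members' mean level, in each genotype) 2 held a library far from the other 3 by Dixon's test. Chance gives about 1 in 20, so this count is no more than chance would give. Ndufa4 was at 6746, 6721, 7884 and 6769 in the wild-type E13.5 hearts, with 7884 in library 3 apart from the rest. The members' mean log2 level in knockout E13.5 hearts was 10.5 in library 2, below the other 3 knockout libraries. Both libraries came from the litter that gave E13.5 replicates 2 and 3 of both genotypes, so their shared litter shows little.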

How the results depend on the processing

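All 37 members stayed higher in ventricles than at E13.5 under each alternative run, while the count called varied. It was 23 as reported and at either other pseudocount, 34 with library weights, 30 with only the 2 groups compared, 21 after a GC adjustment, 19 with no filter, 17 after upper-quartile scaling, 16 after quantile scaling, 12 to 18 without 1 library and 14 without both libraries of wild-type pup 2. The share of all genes called under each alternative is not given here. These counts, and those below, therefore do not compare the members with other genes. The median was 0.91 after quantile scaling. For atria against E13.5, 2 members were called under quantile scaling, under library weights, without wild-type atrial library 3 and without the third atrial pair. The median there was 0.30 after quantile scaling, 0.26 without the third pair and -0.092 to 0.26 without 1 library. For knockout against wild-type atria it was -0.18 without the third pair, and Ndufc2, at 0.37 and -0.052 to 0.68 without 1 library, turned to -0.039 with library weights, -0.052 without wild-type library 3 and -0.17 without the third pair. For ventricles against atria, the median after quantile scaling was 0.58 in wild-type and 0.42 in knockout pups, and 0.92 in knockout pups after a GC adjustment. For the same contrast, the fit of 6 group means over all libraries, without the pup, called 10 members in wild-type and 1 in knockout pups. With the pair of the same replicate number as block, the knockout contrasts called 0 members, with medians of -0.031 at E13.5, 0.072 in atria and -0.22 in ventricles. This block changed no call of a member. Leaving out the third pair, leaving out pups 3, the GC adjustment and the restriction to 1 preparation year were chosen after seeing the data. The causes of these shifts were not tested. The median SE of a member's knockout difference was 0.24 at E13.5, 0.28 in atria and 0.28 in ventricles, which limits what 3 or 4 libraries a group can show.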
